A study of Homo sapiens with 6 samples.

Results

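The open chromatin of naive human embryonic stem cells is described here from the 3 control libraries of an ATAC-seq series of 6 libraries. The cells were H9 (WA09), an established human embryonic stem cell line, kept in the naive medium tt2iLGö, which is N2B27 with the MEK inhibitor PD0325901, the GSK3 inhibitor CHIR99021, the protein kinase C inhibitor Gö 6983 and human LIF. They had been separated from mouse DR4 feeders, plated on laminin E8 and left for 24 h without dimethyl α-ketoglutarate. The labels name these control samples DMSO, while the treatment text gives them as 0 mM of the compound. They are 3 biological replicates of 1 line, so the spread between them says nothing about other lines or donors. The other 3 libraries were not analysed here. All 171517 merged peaks of the deposited count table were described, by their level in the control libraries. Of these, 148896 (86.8%) held a summit of the control peak list, with a median of 17.9 CPM per kb, and 18703 (10.9%) did not overlap that list, with a median of 6.81 CPM per kb.

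In ATAC-seq the Tn5 transposase cuts and tags DNA where nucleosomes are sparse, so a high read density marks promoters, enhancers and insulators that proteins occupy. Naive cells resemble the epiblast of the preimplantation blastocyst and use KLF17, TFCP2L1, KLF4 and DPPA3 beside the core factors POU5F1 (OCT4), SOX2 and NANOG. Primed cells resemble a later epiblast and are marked by genes such as ZIC2, OTX2 and VIM.

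Accessibility is given in CPM per kb, that is CPM scaled to the total of the library in peaks and divided by the width of the peak in kilobases. A promoter peak had its centre within 1 kb of a transcript start in GENCODE 44, and a distal peak lay more than 10 kb from any. Replicates 1 to 3 gave 22004603, 23771142 and 16159058 counts over the peaks, and 11, 4 and 21 peaks were without a count. At these depths 3 counts in a 200 bp peak correspond to 0.682, 0.631 and 0.928 CPM per kb, below which a level cannot be told from 0. Over all peaks, log2 levels of any pair of libraries had a Pearson correlation of 0.959 to 0.968, as a description over peaks that share library and depth. The median coefficient of variation between libraries was 27.6% for the lowest 10% of peaks and 4.34% for the top 1%, so the ranks at the open end are much firmer than those at the closed end.

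The sequences of 6 peaks that the results turn on are shown here, each 200 bases around the peak centre on the plus strand of hg38, from the reference and not from the reads. Capitals mark a match to a motif searched in the peaks. The first pair are the distal autosomal peaks that ranked 1 and 3 in accessibility, at chr14:102524681-102524880 and chr4:1511737-1511936.
distal peak ranked 1: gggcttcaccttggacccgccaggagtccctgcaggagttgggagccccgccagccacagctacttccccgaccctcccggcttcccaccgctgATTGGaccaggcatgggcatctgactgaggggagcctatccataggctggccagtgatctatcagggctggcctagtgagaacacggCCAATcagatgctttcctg
distal peak ranked 3: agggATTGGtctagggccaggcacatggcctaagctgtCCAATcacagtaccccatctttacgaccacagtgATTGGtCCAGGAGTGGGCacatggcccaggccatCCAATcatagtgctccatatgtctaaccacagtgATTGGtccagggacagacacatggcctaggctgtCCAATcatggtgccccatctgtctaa
The next is the peak at the MSMO1 promoter (chr4:165327429-165327628), which was among the most accessible promoters of all.
promoter peak of MSMO1: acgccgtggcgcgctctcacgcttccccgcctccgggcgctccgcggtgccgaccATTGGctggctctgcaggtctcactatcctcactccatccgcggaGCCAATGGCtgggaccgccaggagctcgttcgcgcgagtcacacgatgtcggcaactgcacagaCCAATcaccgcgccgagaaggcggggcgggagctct
The last 3 are the most accessible non-promoter peaks near DPPA3 (chr12:7705960-7706159), TFCP2L1 (chr2:121257122-121257321) and POU5F1 (chr6:31172992-31173191), genes of the naive and core networks.
non-promoter peak of DPPA3: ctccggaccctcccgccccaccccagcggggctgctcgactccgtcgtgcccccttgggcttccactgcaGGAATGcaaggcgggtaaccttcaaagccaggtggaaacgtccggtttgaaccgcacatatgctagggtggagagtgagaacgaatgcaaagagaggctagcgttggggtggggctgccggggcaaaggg
non-promoter peak of TFCP2L1: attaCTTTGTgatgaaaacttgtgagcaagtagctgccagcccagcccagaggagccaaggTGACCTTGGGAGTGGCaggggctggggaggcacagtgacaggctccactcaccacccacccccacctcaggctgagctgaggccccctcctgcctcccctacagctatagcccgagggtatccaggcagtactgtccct
non-promoter peak of POU5F1: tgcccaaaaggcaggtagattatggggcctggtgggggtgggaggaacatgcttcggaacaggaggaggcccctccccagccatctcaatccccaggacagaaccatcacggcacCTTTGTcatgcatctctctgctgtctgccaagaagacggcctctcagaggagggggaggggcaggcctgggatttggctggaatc

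Promoters were the most open class and held about as many counts as everything else. The 61874 promoter peaks (36.1% of all) had a median of 21.4, 21.6 and 21.3 CPM per kb in the 3 libraries. The 54754 distal peaks had medians of 11.8, 11.8 and 11.9 CPM per kb, and the 54889 peaks between these distances had a median of 14.7 ± 0.11 CPM per kb (SD, n = 3). The promoter median was 1.81 ± 0.016 times the distal median (SD, n = 3). Promoter peaks took 50.3% ± 0.15 of the counts in peaks, and 1375 of the 1716 most accessible 1% of peaks were promoters. The classes overlapped widely, and 26.2% of distal peaks were above the median promoter peak. The order depends on the measure. By the fold enrichment that the peak caller gave to the control summits, the median promoter peak stood at 7.40 and the median distal peak at 10.3, the reverse of the order by counts. The cause was not tested.

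**Figure D1:**
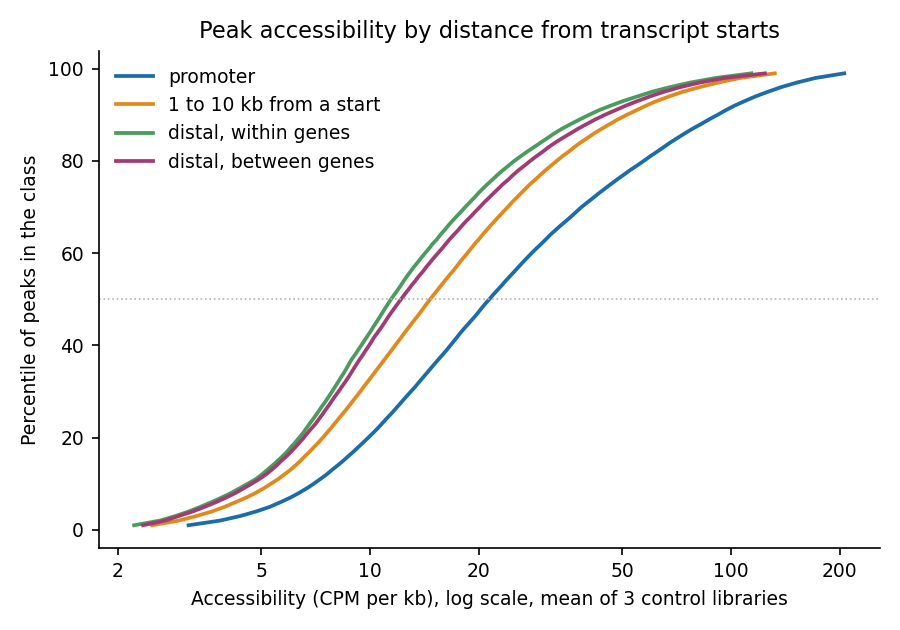
Cumulative distribution of peak accessibility in 4 classes of peak, with the mean of 3 control libraries in CPM per kb on a log axis and the percentile of peaks in the class on the other axis. The promoter curve lies to the right of the others throughout, with its median at 21.4 CPM per kb, and the curves of distal peaks within and between genes nearly coincide, with medians of 11.4 and 12.2 CPM per kb.

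Promoters differed by the genes they serve. Peaks within 1 kb of protein-coding starts on both strands had the highest median, 30.3 ± 0.65 CPM per kb (SD, n = 3, 4773 peaks). Peaks near coding starts on 1 strand had 22.2 CPM per kb, peaks near starts of long non-coding RNAs alone 17.1, and peaks near other starts 13.6. From the lowest to the top decile of promoter peaks the median GC content went from 57.3% to 66.3%, and the median ratio of observed to expected CpG from 0.48 to 0.80. Distal peaks changed less, from 49.8% to 53.5% GC, and their CpG ratio stayed between 0.21 and 0.23.

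Among 20046 protein-coding genes, 16275 (81.2%) had a promoter peak. For each gene the most accessible of these stood for its promoter, and its percentile was taken among the 16275 genes, whose median was 70.3 CPM per kb. The most open autosomal promoter was that of USP5, which encodes a deubiquitinase that takes apart free ubiquitin chains. Its peak, in an intron 322 bp from the nearest start (ENSG00000111667), stood at 418, 396 and 398 CPM per kb. The peak shared by CDCA2 and KCTD9 followed with 390 ± 22.8 CPM per kb (SD, n = 3). MSMO1, a sterol methyl oxidase, had 378, 352 and 395 CPM per kb. Other promoters among those of the 10 highest genes were those of EDEM3 (387), ZNF687 (378), ACTL6A (373), PANK3 (365) and WBP1 (363 CPM per kb). Neighbours in the order of these 8 peaks overlapped between libraries, with SDs of 12.4 to 33.7 CPM per kb, so their exact ranks are not resolved.

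**Figure D2:**
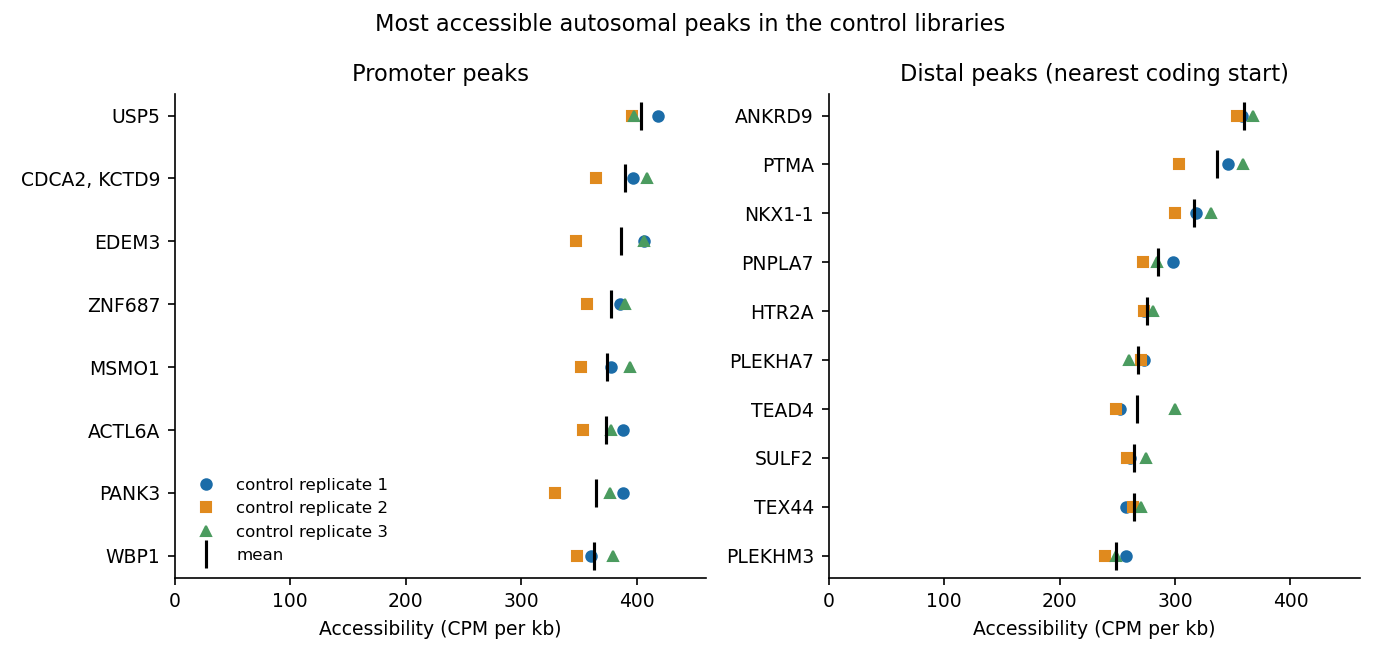
Accessibility in CPM per kb of 8 of the 9 most accessible autosomal promoter peaks, labelled by gene, and the 10 most accessible autosomal distal peaks, labelled by the nearest protein-coding start. Points are single control libraries and the bar is their mean. Promoter means span 363 to 404 and distal means 249 to 360, and replicate 2 is the lowest of the 3 libraries at all 8 promoters shown.

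The least open promoters on the control list belonged to PDE1A, ST8SIA3, PARVG, HCRTR2 and DGKB, of which PDE1A and DGKB encode signalling enzymes, ST8SIA3 a sialyltransferase and HCRTR2 an orexin receptor of the brain. PDE1A had 1.36, 1.89 and 2.78 CPM per kb, at a peak without a control summit. The other means lay between 3.29 and 4.65 CPM per kb, on 10 to 43 counts in the single libraries. No promoter peak was found for 3771 protein-coding genes, and 680 had no other peak within 50 kb of a start either.

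Some families of genes with fixed tissue roles rarely had a promoter peak, or had a low one. Of 416 olfactory receptor genes, 20 had a promoter peak, as had 4 of 94 keratin-associated protein genes, 4 of 40 beta-defensin genes and 1 of 24 bitter taste receptor genes, the last at percentile 80.9. Clustered protocadherins, the cell-surface identity genes of neurons, had a peak at 32 of 53 genes, at a median percentile of 4.61. A promoter was in the lowest 25% of genes in all 3 libraries for 22.4% of the 16275 genes, and for 29 of these 32 protocadherins. HOX genes, which pattern the body axis, had 25 of 35 promoters there and a median percentile of 13.4. Families that all dividing cells need sat a little above the middle, with median percentiles of 59.1 for 81 cytosolic ribosomal protein genes and 53.6 for 78 mitochondrial ribosomal protein genes, and 49 proteasome subunit genes had a median level of 84.9 CPM per kb. The 504 ZNF zinc finger genes with a peak had a median of 59.0.

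Genes of cholesterol synthesis and its control stood at the open end. This list of 24 genes was drawn up after MSMO1 had been seen among the highest promoters, so its position is a description of these genes and is no support for it. The median promoter percentile was 89.3 (66.4 with the fold enrichment of the control summits), and 12 of 24 were in the top 10% of genes in all 3 libraries, as were 8.64% of all genes with a promoter peak. HMGCS1, a synthase early in the pathway, had 333, 330 and 369 CPM per kb. ACAT2, which supplies acetoacetyl-CoA, had 278 ± 8.48 CPM per kb, FDFT1 (squalene synthase) 271 ± 16.4, SREBF2, the transcription factor that drives the pathway, 222 ± 8.09 and MVK (mevalonate kinase) 218 ± 9.28 (SD, n = 3). The lowest of the list was PMVK (phosphomevalonate kinase) with 53.2 ± 9.39 CPM per kb. Away from promoters the same genes were not high. Their best non-promoter peaks within 50 kb had a median percentile of 32.0.

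Naive pluripotency genes ranked above the middle by level at their promoters and higher in the regions around them. Of 20 genes, 18 had a promoter peak, at a median percentile of 69.7 (67.8 to 69.6 in the single libraries), and 2 were in the top 10% in all 3, a share near the 8.64% of all genes. With the fold enrichment of the control summits the median percentile was 16.2. KLF5, a Krüppel-like factor of the naive network, was the highest with 261, 249 and 267 CPM per kb (percentile 98.7). SUSD2, a surface marker used to sort naive cells, had 168, 163 and 172 CPM per kb (90.7). TRIM60 and ALPG had 161 ± 9.09 and 157 ± 5.46 CPM per kb. KLF17 had 114, 95.4 and 96.5 CPM per kb, at percentile 70.1, with replicate 1 the highest. The promoters of KLF4 and DNMT3L, a DNA methyltransferase cofactor, were at percentiles 33.8 and 33.3, and ARGFX, a homeobox gene of the early embryo, was the lowest with 14.0, 15.6 and 10.4 CPM per kb. DPPA3 and OLAH had no promoter peak. Just outside the 1 kb window, DPPA3 had peaks 1190 bp upstream and 1639 bp downstream of its start, at 43.1 and 67.7 CPM per kb.

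Around the same 20 genes the most accessible peak more than 1 kb from any start had a median percentile of 87.2. The windows of these genes held a median of 15 such peaks, against 6 for all genes and 7 for primed genes, and the best of more peaks tends to rank higher. The part of this in the result was not tested. It was in the top 10% in all 3 libraries for 8 of 20 genes, at 7 different peaks, against 8.57% of all genes with such a peak. The highest lay 5373 bp upstream of DPPA3, a maternal factor that guards DNA methylation in the early embryo. It stood at 249, 227 and 235 CPM per kb and percentile 99.7, and it was also the best such peak of the neighbouring gene GDF3, 10285 bp from its nearest start. TFCP2L1, a factor of the naive network, had an intronic peak 22948 bp from its nearest start with 183, 182 and 186 CPM per kb, above its promoter at 68.3 ± 4.56 (SD, n = 3). KHDC1L and KLF5 followed with 179 ± 8.81 and 179 ± 15.6, DNMT3L with 177 ± 15.1, CPT1A with 173 ± 7.71 and FGF4 with 165 ± 6.15 CPM per kb. These peaks lie in a window around the gene, and which gene they act on was not measured.

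**Figure D3:**
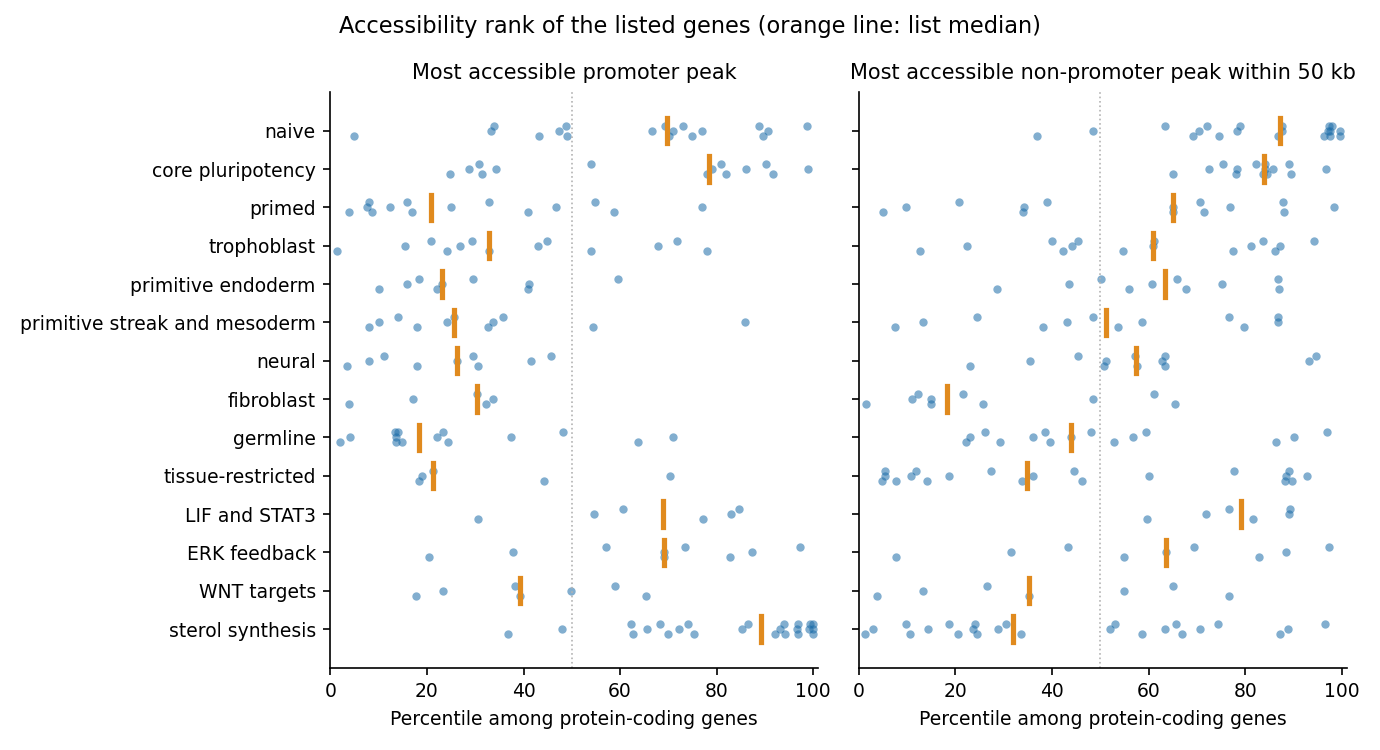
Percentile among protein-coding genes of the most accessible promoter peak and of the most accessible non-promoter peak within 50 kb, for each gene of 14 lists. Points are genes by the mean of 3 control libraries and orange lines are list medians. The naive list has its median at 69.7 for promoters and 87.2 for the surroundings, and the sterol list has 89.3 and 32.0.

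The core pluripotency genes had a median promoter percentile of 78.5 over 14 genes and a median of 83.8 for the surroundings. Their windows held a median of 16 non-promoter peaks, against 6 for all genes, and the part of this was not tested. The best such peak was in the top 10% in all 3 libraries for 1 of 14 genes, near the 8.57% of all genes. The value for promoters rests on alternative transcript starts. With the canonical transcript of each gene alone, the median was 37.3, while that of the naive list was 69.9. With the fold enrichment of the summits it was 28.4. DPPA2 was the highest with 268, 254 and 268 CPM per kb, and PRDM14, a repressor of DNA methylation genes, had 173 ± 9.96. The best POU5F1 promoter peak, at 112, 121 and 128 CPM per kb, lay 10143 bp upstream of the canonical start, at the start of a longer transcript. The peak 498 bp upstream of the canonical start had 50.9 CPM per kb. Between them, 2410 bp upstream, stood a peak of 121, 120 and 124 CPM per kb, whose 3 values nearly coincided. NANOG had 135, 123 and 135 CPM per kb 77 bp upstream of its start. SOX2 was lower, with 45.0, 55.6 and 49.2 CPM per kb, and DPPA4 was the lowest of the list at 37.4 ± 2.26.

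**Figure D4:**
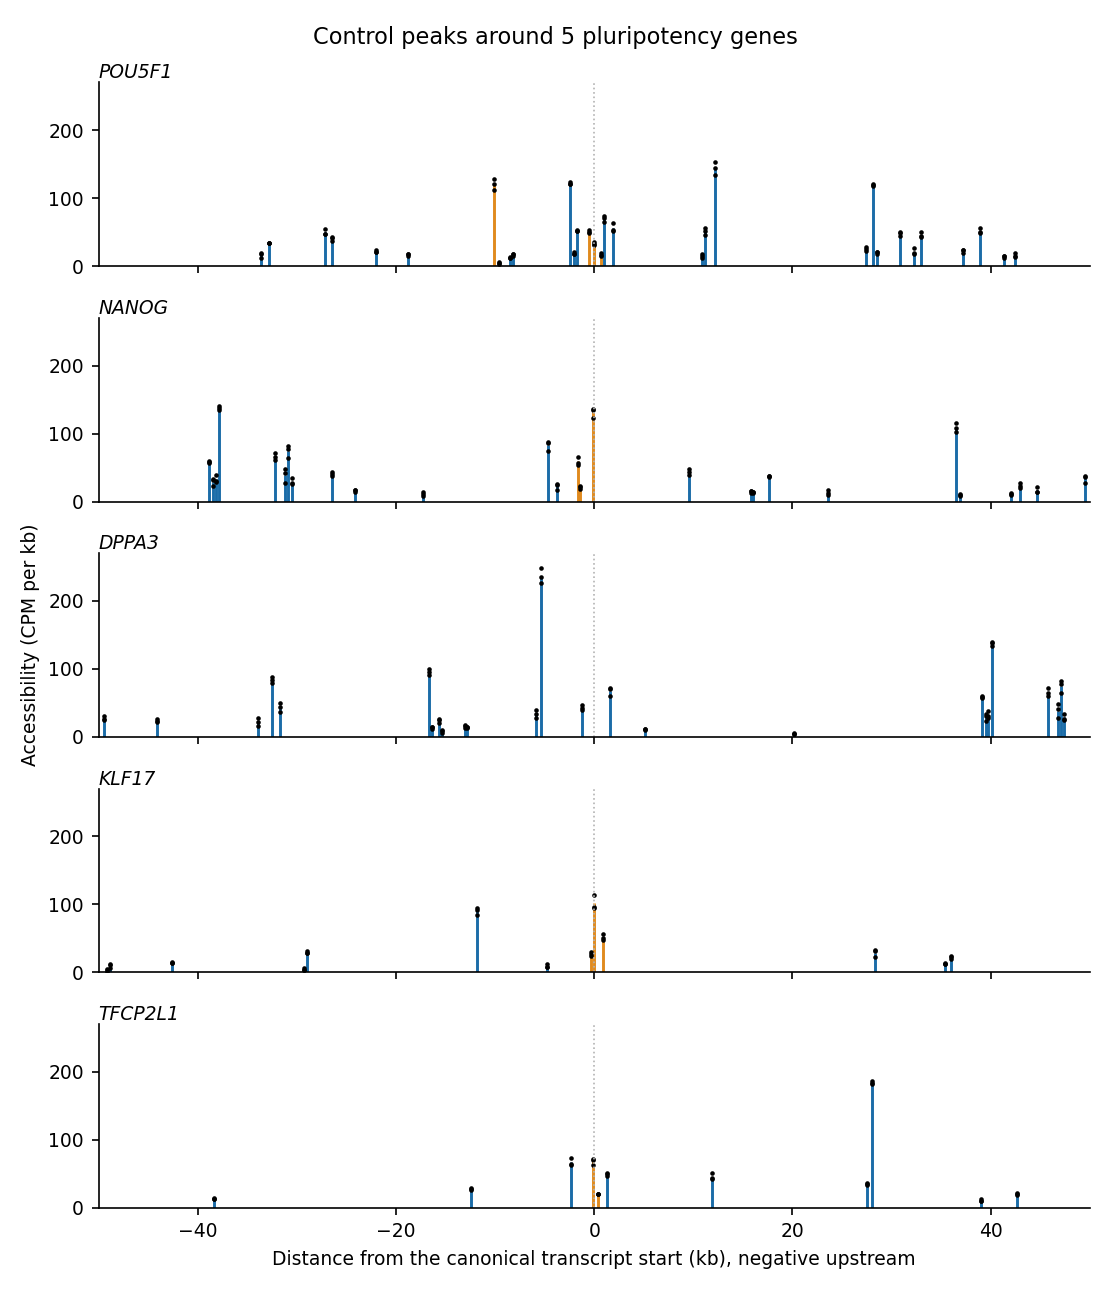
Accessibility in CPM per kb of every peak within 50 kb of the canonical start of POU5F1, NANOG, DPPA3, KLF17 and TFCP2L1, against distance in kilobases with upstream negative. Lines are means of 3 control libraries, orange within 1 kb of a start of the gene and blue elsewhere, and dots are single libraries. The highest line is the peak 5373 bp upstream of DPPA3 at 237 CPM per kb, and at TFCP2L1 the intronic peak exceeds the promoter.

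Genes of the primed state ranked low by level at their promoters. Over 14 genes with a peak the median percentile was 20.9, none was in the top 10% and 7 were in the lowest 25% in all 3 libraries, against 8.64% and 22.4% of all genes. With so few genes a count of 0 is close to the share of all genes. FGF2, a growth factor that primed cultures depend on, had 12.0, 14.3 and 9.59 CPM per kb, SOX11 had 20.5, 14.1 and 14.9, and VIM (vimentin) had 15.0, 21.3 and 17.2. OTX2 had 22.3 ± 2.72 and ZIC2 26.5 ± 1.55 CPM per kb (SD, n = 3). DUSP6, a phosphatase induced by ERK signalling, was the highest of the list at 118 ± 11.9, and DNMT3B had 83.0 ± 5.71. The median naive percentile exceeded the median primed one by 48.7, and by 36.2 with the −log10 q-value of the control summits in place of the level. With the fold enrichment of the same summits the difference was −3.73, so the order of these lists holds for read density and not for fold enrichment.

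The surroundings of primed genes were less closed than their promoters, with a median percentile of 65.1. TCF7L1, a transcriptional repressor of the WNT pathway, had a peak between genes with 196, 185 and 191 CPM per kb (percentile 98.3), and FGF2 had one at 117 ± 13.9 CPM per kb, 43169 bp from its nearest start. Whether these peaks act on the named genes was not tested.

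Genes of lineages that naive cells can form held intermediate to low promoter ranks. The trophoblast list had a median percentile of 32.9 over 13 genes with a peak. In all 3 libraries 0 were in the top 10% and 3 in the lowest 25%, against 8.64% and 22.4% of all genes. With so few genes both counts are close to those shares. Within it TFAP2A had 127, 120 and 113 CPM per kb, KRT19 106 ± 4.21 and HAND1 97.7 ± 4.12, while GATA3 had 41.1, 35.8 and 33.3 and TP63 5.91, 8.20 and 9.59. CDX2, a caudal homeobox factor of trophectoderm, had 61.1 ± 2.38 CPM per kb. GCM1, which drives syncytial fusion, had a non-promoter peak at 149 ± 4.82 CPM per kb, in the top 10% of genes in all 3 libraries. Primitive endoderm genes had a median of 23.1 over 9 genes, with PDGFRA, a growth factor receptor, at 26.4 ± 0.124 CPM per kb and HNF4A the highest at 84.2 ± 2.19. Primitive streak and mesoderm genes had a median of 25.5 over 11, with TBX6 the exception at 146, 140 and 149 CPM per kb, and TBXT (brachyury) at 47.6 ± 1.55. Neural genes had 26.2 over 9, from PAX3 at 11.6 ± 3.10 to LHX2 at 64.6 ± 3.67 CPM per kb, and OLIG2, NKX2-2 and SIX3 had no promoter peak.

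Germline genes had a median percentile of 18.5 over 14 genes, of which 7 were in the lowest 25% in all 3 libraries (22.4% of all genes). With the fold enrichment of the control summits the median was 69.3, above the middle, so this order holds for read density and not for fold enrichment. SYCP3, a synaptonemal complex protein, was the highest with 110, 93.7 and 108 CPM per kb, and SYCP1 was the lowest with 9.67, 10.0 and 7.66. Of 20 genes restricted to differentiated tissues, 5 had a promoter peak. Among them was the muscle factor MYOD1 with 62.8 ± 6.12 CPM per kb, while the genes for haemoglobin beta, albumin and insulin had none. Fibroblast markers were listed because the cells had grown on feeders. Of 11 genes, 5 had a promoter peak, COL3A1, LUM, DCN, POSTN, FAP and PDGFRB had none, and COL1A2 was the highest with 51.8, 46.8 and 48.1 CPM per kb. Reads of mouse cells would map to the human genome only in part, so these values do not measure feeder cells.

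The pathways that the medium acts on differed. The 6 genes of LIF signalling had a median promoter percentile of 68.9, with the receptor subunit IL6ST at 141 ± 1.61 CPM per kb, STAT3 at 135 ± 6.46 and the ligand-binding receptor LIFR at 44.8 ± 5.03. Of 9 genes that ERK signalling induces, in a medium that inhibits MEK, the median was 69.2. It was 25.6 with the fold enrichment of the summits, which also put the LIF list below the middle, at 42.0. ETV5 had 233, 225 and 228 CPM per kb, in the top 10% in all 3 libraries, and SPRED1 was the lowest with 32.1 ± 3.82. Of 7 WNT target genes, in a medium that inhibits GSK3, the median was 39.3, from LEF1 at 28.8 ± 7.25 to TCF7 with 94.9, 94.1 and 92.2 CPM per kb. AXIN2 had 83.1 ± 5.57.

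Distal peaks reached the level of the best promoters at few places, and 4 of the 100 most accessible peaks were distal. The highest lay between genes on chromosome 14, 14982 bp from the nearest coding start, that of ANKRD9, with 358, 353 and 367 CPM per kb. The second, on chromosome 2, was 40463 bp from the start of PTMA with 346, 304 and 359. The third, on chromosome 4, was 105395 bp from the start of NKX1-1 with 318, 300 and 331, and its sequence above repeats a unit that holds CCAAT boxes. Next came intronic peaks of PNPLA7 (285 ± 13.3), HTR2A (276 ± 4.64), PLEKHA7 (268 ± 6.78) and TEAD4, a factor of the Hippo pathway needed for trophectoderm (252, 248 and 300 CPM per kb, with replicate 3 apart from the others). The last 3 of the 10 were nearest to SULF2 (265 ± 8.58), TEX44 (264 ± 6.35) and PLEKHM3 (249 ± 8.98 CPM per kb).

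The least open distal peaks on the control list had 0.849 to 1.26 CPM per kb and were near CCNG2, PDE1C, GPR137C, TLL2 and TDRD3. None of these 5 held a control summit, and their values in single libraries lay around the level of 3 counts. Among distal peaks with a control summit the lowest 5 had 1.75 to 1.95 CPM per kb. They lay in introns of CAMKMT, ASTN2, COMMD1 and RFTN2 and in a stretch between genes whose nearest coding start, that of COX7C, was 970471 bp away.

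MicroRNA clusters of the embryo were open to unequal degrees. These clusters were added after the gene lists. MicroRNAs silence messages through the seed, bases 2 to 8, and the members shown of the 3 pluripotency clusters share a seed. The miR-200 family, which keeps cells epithelial, is shown by miR-200c and miR-141, whose seeds differ from it and from each other. The mature sequences are from RefSeq (GRCh38.p14), with the seed in capitals.
hsa-miR-302a-3p: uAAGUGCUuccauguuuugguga
hsa-miR-372-3p: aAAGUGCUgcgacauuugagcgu
hsa-miR-520c-3p: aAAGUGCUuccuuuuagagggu
hsa-miR-200c-3p: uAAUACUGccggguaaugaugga
hsa-miR-141-3p: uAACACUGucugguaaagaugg
The most accessible peak within 10 kb of the miR-200c and miR-141 hairpins on chromosome 12 stood at 254, 263 and 278 CPM per kb, at percentile 99.5 of 1151 hairpins with a peak. The chromosome 19 cluster C19MC, which holds miR-520c and is used by naive and placental cells, had 14 peaks. The highest was 76 bp from the start of its first hairpin gene, MIR512-1, with 157, 176 and 155 CPM per kb. The peak near miR-371 to miR-373 had 84.3 ± 4.89 CPM per kb (SD, n = 3), at percentile 72.5. The one near miR-302 and miR-367, a cluster of primed cells, had 54.8 ± 2.05, at percentile 55.2, near the middle. It lay 7 bp from a start of LARP7, and whether that start serves the cluster was not tested. No peak lay within 10 kb of the hairpins of miR-122 (liver) or miR-155 (immune cells). Other microRNAs outside the embryo clusters did have peaks in that window, at levels like those near miR-302 and miR-371 to miR-373. The highest stood at 56.6 CPM per kb for miR-124, 95.6 for miR-21 and 76.5 to 100 for the copies of miR-9.

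The letters under the peaks changed with their level. Motifs were searched on both strands of the 200 bases around each centre, and shares are given over deciles of promoter or distal peaks. A match is a description and not evidence of binding. The CCAAT box (CCAAT), the site of the factor NFY, was in 46.0% of the top decile of promoter peaks and 16.0% of the lowest decile, with 20.4% over all peaks. The top shares in the single libraries were 46.1%, 46.4% and 45.8%. Ranked within strata of equal GC content, the shares were 46.2% and 11.7%. The deciles also differed in place. The median distance to the nearest start was 71 bp in the top and 311 bp in the lowest decile of promoter peaks. Within genes lay 61.3% and 85.1% of them. Motif shares were not adjusted for this, and its part in them was not tested. The rise sat at the open end, since the fifth decile had 12.7% and the top 1% had 73.3%. At least 2 boxes were found in 47.7% of the top 1% of promoter peaks and in 4.33% of all promoter peaks. Of the 9 highest promoter peaks 8 held a box, MSMO1 with 3, as in the sequence above, and USP5 held none. Of the 24 sterol genes 19 had a box in the promoter peak. Lists with lower promoter ranks differed, with 10 of 13 trophoblast, 6 of 9 neural and 8 of 14 germline promoters holding it. It was in 4 of 14 primed, 3 of 9 primitive endoderm and 2 of 11 primitive streak and mesoderm promoters. In the WNT, tissue-restricted and fibroblast lists it was in 2 of 7, 1 of 5 and 3 of 5. The naive list had 7 of 18 and the core pluripotency list 8 of 14. Not all lists with high ranks held it often. The genes of LIF signalling, at a median promoter percentile of 68.9, had 2 of 6. Those that ERK signalling induces, at 69.2, had 2 of 9. Over all promoter peaks the share was 18.4%, a set not limited to the best peak of each gene. Distal peaks showed little rise of the box with level, with 23.6% in the top and 21.4% in the lowest decile. The CCAAT box was settled on after these sequences had been seen.

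**Figure D5:**
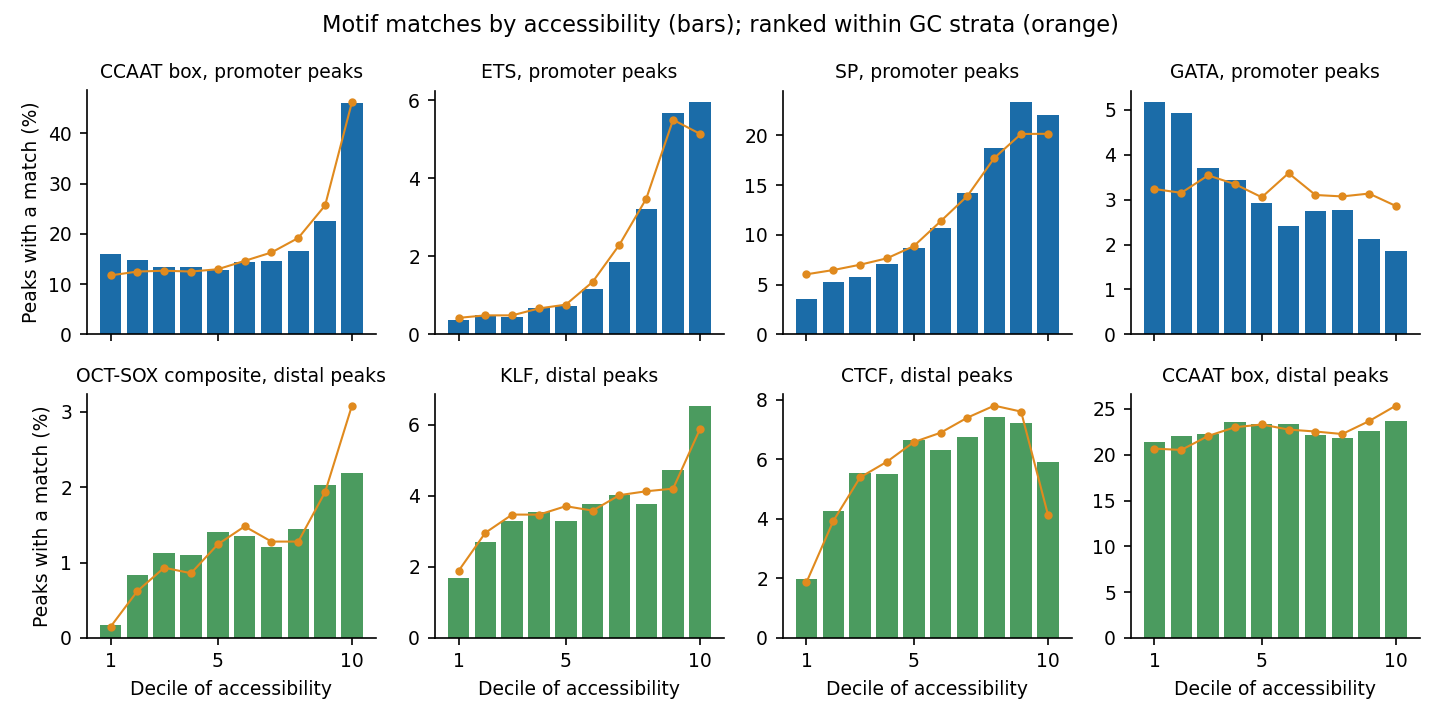
Share of peaks that hold a motif, in percent, by decile of accessibility from 1 (lowest) to 10 (top), for promoter peaks in blue and distal peaks in green. Bars rank all peaks of the class and orange points rank them within strata of GC content. The CCAAT box is flat in distal peaks and reaches 46.0% in the top decile of promoter peaks, and the OCT-SOX composite reaches 2.19% in the top decile of distal peaks.

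Other promoter motifs also went with the level. The ETS site CCGGAAGT was in 5.95% of the top and 0.372% of the lowest decile of promoter peaks (0.954% of all peaks). The GC box GGGGCGGGG of SP and KLF factors was in 22.0% and 3.52% (5.73% of all peaks), and the CREB site TGACGTCA in 136 peaks and 20 peaks (0.470% of all peaks). These orders held within GC strata, at 5.13% and 0.421%, 20.2% and 6.04%, and 1.91% and 0.259%. As for the CCAAT box, the distance of the peaks from a start was not adjusted for. The GATA site AGATAA went the other way, with 1.86% in the top and 5.17% in the lowest decile (6.22% of all peaks), and was near level within GC strata at 2.86% and 3.24%. Over promoter peaks alone the shares were 2.06% for ETS, 11.9% for the GC box, 0.934% for CREB and 3.21% for GATA.

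In distal peaks several motifs were more frequent at the open end, those of OCT and KLF factors among them. The OCT-SOX composite, with up to 2 mismatches allowed, was in 120 peaks (2.19%) of the top and 9 peaks (0.164%) of the lowest decile, with 0.760% over all peaks. The octamer ATTTGCAT, whose letters are part of that composite, was in 5.02% and 1.64% (2.283% of all peaks). The KLF site GGGNGTGGC was in 6.54% and 1.68% (4.07% of all peaks). The TFAP2 site GCCNNNGGC, whose letters can overlap a CCAAT box as at MSMO1, was in 19.4% and 8.33% (17.9% of all peaks), and the TEAD site GGAATG in 21.4% and 14.2% (14.6% of all peaks). Within GC strata these 5 kept their order. The rise was not particular to pluripotency motifs. The GC box GGGGCGGGG was in 3.82% and 0.785% (5.73% of all peaks), and in 2.66% and 1.02% within GC strata. The CREB site was in 17 and 5 distal peaks (0.470% of all peaks). The CTCF motif was rare in the lowest decile at 1.97% and stood at 5.90% in the top decile, with its highest share in the eighth. The ESRRB and NR5A site AAGGTCA, found in the TFCP2L1 peak above beside a KLF site, was in 3.67% of the top and 4.13% of the lowest decile (3.17% of all peaks), and the SOX site ACAAAG, found in the TFCP2L1 and POU5F1 peaks, in 18.8% and 15.4% (13.2% of all peaks). Over distal peaks alone the shares were 1.29% for OCT-SOX, 3.55% for the octamer, 3.73% for KLF, 13.2% for TFAP2 and 18.2% for TEAD. They were 1.68% for the GC box, 0.181% for CREB, 3.81% for ESRRB and NR5A and 17.1% for SOX.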

How the data were processed

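ATAC-seq libraries of H9 naive cells were processed by the authors with the ENCODE pipeline (Bowtie 2, MACS2 and IDR, hg38). They cut IDR peaks to 200 bp around each summit, merged those of both conditions and counted reads with bedtools 2.28.0. The deposited table holds raw counts per merged peak, with no normalization. The deposited control list gives, for 154385 summits, a signal value from MACS2 as fold enrichment and a q-value as −log10. Because the merged table also holds peaks called only in the other condition, a low peak need not be a control peak.

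Counts of the 3 control libraries were divided by the library total in peaks and by peak width, and their mean was ranked. Transcript starts came from GENCODE 44. A gene took its most accessible peak within 1 kb of any of its starts, which favours genes with many starts, and its most accessible peak more than 1 kb from any start within 50 kb. A promoter was counted in the top 10% or the lowest 25% only where this held in all 3 libraries. Named were, of each list, the highest and the lowest genes and others of known role, the 10 genes with the most accessible autosomal promoters, the 10 most accessible autosomal distal peaks and the 5 lowest of each on the control list. GC strata were 5 percentage points wide. The members and lists were chosen with earlier results of these data known. The CCAAT box took the place of an NFY motif whose letters had been left ambiguous.

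With 1 group there was no contrast and no test, and errors are SDs over 3 libraries. Counting covers reads, not independent molecules, so floors cover counting error only. Alternatives were library scaling (TMM and RLE in edgeR 4.0.16, R 4.3.3), width, peak sets, promoter definitions, GC strata, the deposited signal value and −log10 q-value, and leaving out each library. The levels, rather than the ranks, were tested on simulated data, where the planted fold of 198 of 200 changed peaks of 171517 was recovered. The changed peaks were drawn above a minimum level, so the low end was not covered. Python 3.11.15, pandas 2.3.3, numpy 2.4.6, pysam 0.24.0 and matplotlib 3.10.9 were used. Sex chromosomes were left out of the named peaks. Some genes that the naming rule would give are not reported here.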

Additional observations from a re-analysis of the deposited data

How the results depend on the processing

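The ratio of promoter to distal medians, 1.82 from the mean levels, was 1.81 to 1.82 when 1 library was left out. It was 1.90 without division by width, 1.74 for peaks on the control list, 1.83 on autosomes, 1.86 for peaks no wider than 250 bp, 1.75 for peaks with at least 10 counts in each library, 1.97 with a promoter window of 500 bp, 1.84 with gene record starts and 1.86 with canonical starts. It was 1.30 with the −log10 q-value of the summit, 1.07 with the signal value of the best overlapping interval and 0.716, that is reversed, with the signal value of the peak's own summit. The promoter share of counts, 50.3%, was 50.2 to 50.4% without 1 library, 50.9% on the control list, 49.0% for narrow peaks, 44.3% at 500 bp, 39.7% with gene record starts and 42.3% with canonical starts. The naive promoter percentile, 69.7, was 68.6 to 70.5 without 1 library, 68.2 without width, 67.1 with gene record starts, 70.9 within GC strata, 53.2 with −log10 q and 15.5 and 16.2 with the signal values of the interval and the summit. The percentile of its surroundings, 87.2, was 86.6 to 87.2 without 1 library, 80.7 within 100 kb, 92.6 within GC strata, 78.7 with −log10 q and 57.7 with the summit's signal value. The cause was not tested. The number of genes with a promoter peak stayed within 14759 to 16275. Of the values for the other lists 154 moved by less than 1 SD between libraries and 80 by more, and of those for named peaks 51 did not move or moved by less and 25 moved by more. With the interval's signal value the core list went from 78.5 to 27.9 and the germline list from 18.5 to 69.2. The summit and canonical alternatives and those of the sterol list were chosen after seeing the data. No paired analysis was possible because only control libraries were described and no result came from a test. Depth limits the low end, where 3 counts correspond to 0.631 to 0.928 CPM per kb.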

Other observations

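The longest stretches of autosomal sequence without any peak, assembly gaps aside, were 1.12 Mb on chromosome 10 (53978594 to 55098558, hg38) within the gene PCDH15, a cadherin of sensory hair cells, 1.05 Mb on chromosome 6 at KHDRBS2, a neuronal RNA-binding protein gene, and 0.974 Mb on chromosome 3 in NAALADL2. The next, on chromosomes 7, 14 and 9, held no protein-coding gene. Their GC content was 34.2 to 39.1%. How well reads can be mapped in these stretches was not examined, so a lack of peaks need not mean closed chromatin. Median distal accessibility differed little between autosomes, from 10.9 CPM per kb on chromosome 18 to 14.3 on chromosome 19, the latter over 991 distal peaks.

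The promoter peak of MIR9-1HG, the host gene of 1 of the copies of the neural microRNA miR-9, stood at 81.2 ± 9.70 CPM per kb (SD, n = 3). This peak was at percentile 87.7 of all promoter peaks and 70.6 of hairpins with a peak. In the neural list SOX1 had 17.1 ± 1.37 CPM per kb, and LHX2 was higher, as given above. Within 10 kb of the hairpins of let-7a-1, let-7f-1 and let-7d, microRNAs of differentiated cells, the most accessible peak had 205, 213 and 197 CPM per kb. It was at percentile 97.1 of hairpins with a peak and 173 bp from a start of the host gene MIRLET7A1HG. Replication-dependent histone genes had a median promoter percentile of 45.1 over 68 genes with a peak. In all 3 libraries 0 of them were in the top 10% and 8 in the lowest 25%, against 8.64% and 22.4% of all genes.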
